A study of Mus musculus with 9 samples.

Results

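In RNA-seq of sorted long-term haematopoietic stem cells (LT-HSCs), 6 genes of the scavenging programme of sinusoidal endothelium were followed: Stab1, Stab2, Mrc1, Lyve1, Dnase1l3 and Fcgr2b. They are 6 of the 22322 genes in the deposited table, found by symbol, and each symbol matched 1 row. The genes were chosen by symbol with their FPKM (fragment counts scaled to transcript length and library size) in Cxcl10-/- against wild-type (WT) cells already known, so the values of that comparison and of any other that uses the Cxcl10-/- libraries are given as a description and support nothing. C57BL/6 mice, 6 to 8 weeks old, gave the marrow, from which CD150+, CD48- and CD135- cells were sorted within the Lin-, Sca-1+ and c-Kit+ fraction. A library holds 500 to 800 cells of 1 mouse, and there were 9 mice: 3 WT mice, 3 Cxcl10-/- mice, which lack the chemokine gene Cxcl10, and 3 Cxcr3-/- mice, which lack the gene of its receptor. No treatment is given for any group, and the sources do not say whether WT mice were littermates or which part of a gene was deleted.

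Sinusoids are the wide, thin-walled venous capillaries of marrow, liver and spleen. Their endothelial cells clear macromolecules from blood with receptors that bind waste ligands at the surface and carry them through clathrin-coated pits to lysosomes. The stabilins, encoded by Stab1 and Stab2, are large receptors with fasciclin-like and EGF-like repeats that take up hyaluronan, modified lipoproteins and matrix fragments. Mrc1 encodes the mannose receptor (CD206), which takes up mannosylated glycoproteins and collagen fragments and is also made by macrophages. Lyve1 encodes a hyaluronan receptor of lymphatic and hepatic sinusoidal endothelium. Dnase1l3 encodes a secreted nuclease that digests DNA in chromatin and is made by dendritic cells and macrophages as well as by endothelium; it is an enzyme, not a receptor. Fcgr2b encodes the inhibitory Fc gamma receptor, which removes small immune complexes in sinusoids and restrains B cells and myeloid cells.

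In GENCODE M21 (GRCm38), Stab1 (ENSMUSG00000042286) lies at chr14:31139013-31168641 and Dnase1l3 (ENSMUSG00000025279) on the same chromosome at chr14:7964533-7994573, both on the minus strand. Stab2 (ENSMUSG00000035459) lies at chr10:86841198-87008025, Lyve1 (ENSMUSG00000030787) at chr7:110850607-110863239 and Fcgr2b (ENSMUSG00000026656) at chr1:170958617-170976547, all on the minus strand. Mrc1 (ENSMUSG00000026712) lies on the plus strand at chr2:14229392-14332057. Promoter sequence from RefSeq (GRCm38.p6) was at hand for 4 of them, Stab1, Stab2, Mrc1 and Fcgr2b. Each stretch covers the 250 bases before the RefSeq start, which can lie inside the GENCODE gene: 83 of the bases do so for Stab2, 22 for Mrc1, all 250 for Fcgr2b and 0 for Stab1. The part outside the gene is shown for the stabilins, because the results turn most on these 2 members. They are printed 5′ to 3′ on the gene's strand, with AGGAAG (letters that contain GGAA, the core of an ETS-type site) in capitals. Other GGAA matches are not marked.
Stab1, chr14:31168642-31168891, minus strand: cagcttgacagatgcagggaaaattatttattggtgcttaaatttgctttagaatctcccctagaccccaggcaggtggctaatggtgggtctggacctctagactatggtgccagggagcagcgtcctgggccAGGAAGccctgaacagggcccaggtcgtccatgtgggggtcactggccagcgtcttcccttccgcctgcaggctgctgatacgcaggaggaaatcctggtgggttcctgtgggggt
Stab2, chr10:87008026-87008192, minus strand: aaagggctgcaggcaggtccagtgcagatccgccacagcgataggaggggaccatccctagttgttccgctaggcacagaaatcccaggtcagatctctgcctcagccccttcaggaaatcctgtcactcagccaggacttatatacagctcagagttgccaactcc

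In the Stab1 stretch AGGAAG begins 116 bases before the start. In the Stab2 stretch AGGAAG lies on the other strand, 40 bases before the RefSeq start, among the bases inside the gene that are not shown. The Mrc1 promoter holds AGGAAG 3 times, each on the other strand, at 210, 168 and 36 bases before the start. The Fcgr2b promoter does not hold AGGAAG, though it holds the shorter GGAA. A GATA-type site, AGATAA, was in none of the 4. Over the 32851 promoter stretches of this length in the table, counting both strands, 29.5% hold AGGAAG and 9.99% the GATA-type site. The ETS-type and GATA-type letters can share bases, which could not occur in these 4 stretches because none holds AGATAA. A match is a description of the letters and names no bound factor.

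The expected counts summed to between 12098498 and 17904629 in a library. Cxcl10 had 0 counts in each Cxcl10-/- library, 3 to 84 in WT and 112 to 553 in Cxcr3-/-, while Cxcr3 had 8 counts in 1 WT library and 0 in all others, so the Cxcr3-/- label could not be checked from it. The Cxcl10-/- libraries stood apart: mitochondrial transcripts took 3.57 to 4.13% of their counts against 10.2 to 13.1% in the other 6, and 12561 to 13910 genes were above 0 against 14510 to 18346. The 15 genes of the LT-HSC list summed to 861 to 998 FPKM in Cxcl10-/-, 894 to 1008 in WT and 874 to 959 in Cxcr3-/-. That list also holds Cd34 and Cd48, and the sort took CD48- cells, so the sum does not show the level of each defining gene. Slamf1, which encodes the sorted marker CD150, had 5.23 to 7.40 FPKM in WT and 0.69, 0.71 and 4.12 in Cxcl10-/-. It was named as the only gene of the list that limma called lower there than in WT (adjusted p under 0.05), with 0 called higher. Of all tested genes, 3.18% were called lower. The list's median log2 difference was 0.01 against 0.08 for all tested genes. The call of Slamf1 was lost in 16 of 18 alternatives, edgeR among them (edgeR adjusted p 0.119). The part that these differences between libraries have in the values below was not tested.

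Of the 6 genes, 4 had higher FPKM in each of the 3 Cxcl10-/- libraries than in any WT or Cxcr3-/- library: Stab1, Stab2, Mrc1 and Dnase1l3. Fcgr2b overlapped between the genotypes and Lyve1 was at or near 0 in all 9 libraries. Among all tested genes, 18.3% lay higher in Cxcl10-/- than in WT without overlap, and 16.4% lay lower in Cxcr3-/- than in Cxcl10-/-. Stab1 was at 0.19, 0.60 and 1.90 FPKM in WT, 61.8, 53.7 and 40.1 in Cxcl10-/- and 0.70, 0.00 and 0.24 in Cxcr3-/- (replicates 1, 2 and 3 in this order here and below). The WT and Cxcr3-/- libraries were near 0 and overlapped each other, and the lowest Cxcl10-/- library was far above both. The means were 0.897 ± 0.893, 51.9 ± 11.0 and 0.313 ± 0.356 FPKM (SD, n = 3). On log2(FPKM + 1) the Cxcl10-/- mean exceeded the WT mean by 4.88 ± 0.41 (SE of a limma model fitted to all 9 libraries).

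Stab2 was at 0.08, 0.14 and 0.16 FPKM in WT, 5.76, 6.70 and 4.14 in Cxcl10-/- and 0.13, 0.00 and 0.11 in Cxcr3-/-. As for Stab1, the Cxcl10-/- libraries were all high, while in Cxcr3-/- replicate 2 both stabilins had 0 counts. The group means were 0.127 ± 0.0416, 5.53 ± 1.29 and 0.080 ± 0.070 FPKM (SD, n = 3). The difference between Cxcl10-/- and WT on log2(FPKM + 1) was 2.52 ± 0.38 (SE), a scale that compresses genes near 0: the ratio of the mean FPKM was 43.7 for Stab2 and 57.9 for Stab1. Both ratios divide by few WT counts, 10, 18 and 24 for Stab2 and 1.11, 4.34 and 14.1 for Stab1, so their size is uncertain.

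Mrc1 differed from the stabilins in having a measurable level in every library. It was at 1.86, 1.09 and 1.58 FPKM in WT, 12.3, 10.5 and 5.0 in Cxcl10-/- and 2.72, 0.70 and 1.17 in Cxcr3-/-. The lowest Cxcl10-/- library still exceeded the highest of the other 6, but by less than for the stabilins. Mean FPKM was 1.51 ± 0.390 in WT, 9.28 ± 3.82 in Cxcl10-/- and 1.53 ± 1.06 in Cxcr3-/- (SD, n = 3), and the Cxcl10-/- to WT ratio was 6.15. The difference of 1.97 ± 0.44 (log2, SE) lost its call without WT replicate 1 (2.07), 2 (1.84) or 3 (1.99), although its size hardly moved.

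Dnase1l3 was at 0.03, 0.48 and 0.04 FPKM in WT, 1.94, 7.90 and 3.6 in Cxcl10-/- and 0.03, 0.01 and 1.22 in Cxcr3-/-. The Cxcl10-/- libraries again lay above all others, yet they spread widely among themselves, and WT replicate 2 (35 counts) and Cxcr3-/- replicate 3 (70 counts) stood out from libraries with 1 to 3 counts. Mean levels were 0.183 ± 0.257 FPKM in WT, 4.48 ± 3.08 in Cxcl10-/- and 0.420 ± 0.693 in Cxcr3-/- (SD, n = 3). The difference from WT was 2.08 ± 0.51 (log2, SE). This call was lost without any one of WT replicates 1 (1.99), 2 (2.25) and 3 (2.00) or Cxcl10-/- replicate 2 (1.66), and edgeR, a test on counts, did not make it.

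Fcgr2b did not separate the genotypes. It was at 3.81, 1.71 and 1.38 FPKM in WT, 2.60, 17.65 and 9.04 in Cxcl10-/- and 2.17, 6.67 and 2.79 in Cxcr3-/-. Cxcl10-/- replicate 1 lay inside the WT range, whereas replicate 2 was the highest of the 9 libraries. The means were 2.30 ± 1.32, 9.76 ± 7.55 and 3.88 ± 2.44 FPKM (SD, n = 3), and the Cxcl10-/- to WT difference was 1.48 ± 0.58 (log2, SE), which was not called; without Cxcl10-/- replicate 1 it was 2.12 and was called. Mouse Fcgr3 encodes an activating receptor with a closely related extracellular part, so estimated counts can be divided between the pair. Fcgr3 had 0 counts in each Cxcl10-/- library, 0.00, 2.09 and 0.00 FPKM in WT and 3.48, 1.73 and 2.06 in Cxcr3-/-.

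Lyve1 was not detected in any Cxcl10-/- library, where 0 counts allow up to 0.189 to 0.221 CPM (counts scaled to a library sum of 1000000) at 3 counts. It had 1, 0 and 1 counts in WT and 2, 1 and 8 in Cxcr3-/-, with the highest level, 0.23 FPKM, in Cxcr3-/- replicate 3. These limits cover counting error only, since the reads carry no molecular identifiers. In the same 3 Cxcl10-/- libraries Stab2 had 577, 748 and 540 counts and Stab1 521, 501 and 440. No fold is given for Lyve1 in Cxcl10-/- against WT, because each library of both groups is under 3 counts.

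**Figure D1:**
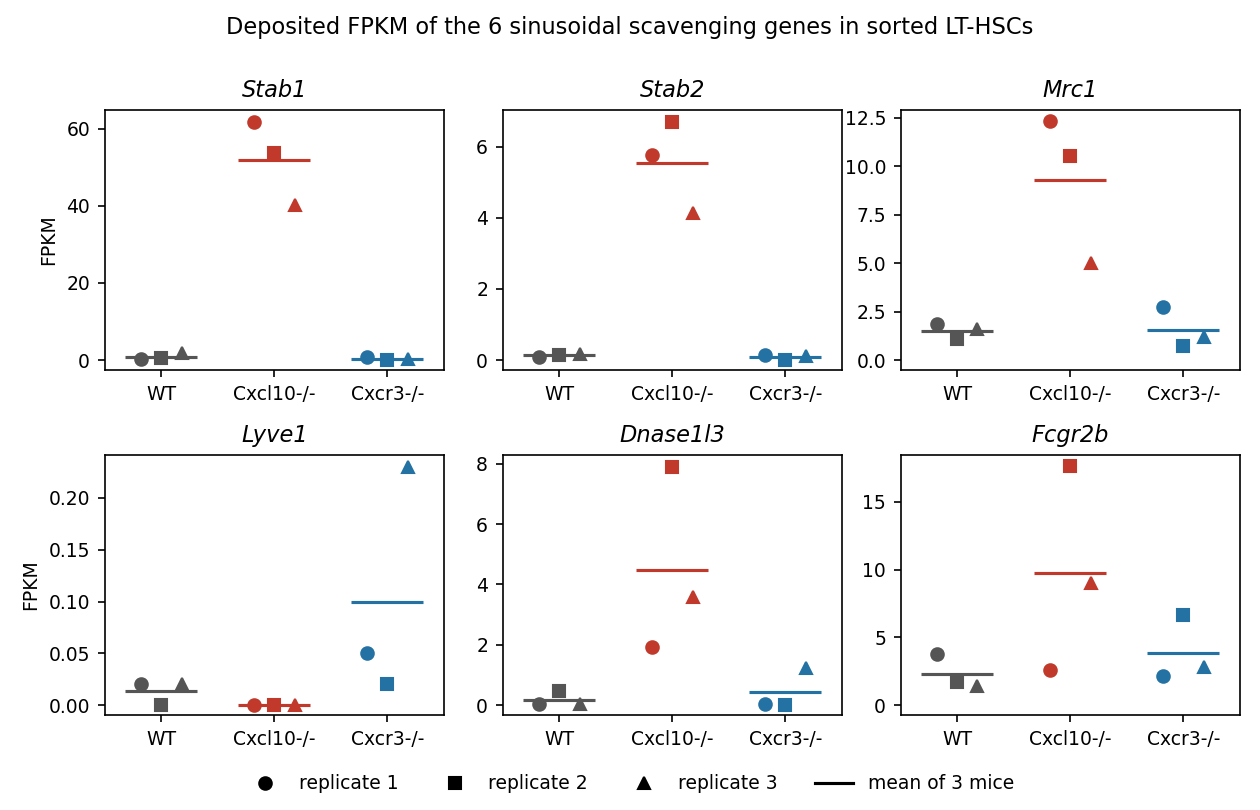
Deposited FPKM (y axis, a separate linear scale per gene) of the 6 genes in the 3 WT, 3 Cxcl10-/- and 3 Cxcr3-/- libraries; each point is 1 mouse, the shape its replicate number and the line the group mean. Stab1, Stab2, Mrc1 and Dnase1l3 lie higher in all 3 Cxcl10-/- libraries than in the other 6, Fcgr2b overlaps and Lyve1 is at 0 in Cxcl10-/-.

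To enter the test a gene needed a 9-library mean of 1 FPKM or more, which 5 of the 6 reached; Lyve1, at a mean of 0.0378 FPKM, did not. Stab1, Stab2 and Dnase1l3 reached it only through the Cxcl10-/- libraries, since their means over the other 6 were 0.605, 0.103 and 0.302 FPKM. In Cxcl10-/- against WT, limma called 4 of the 5 higher at a Benjamini-Hochberg adjusted p under 0.05 (Stab1, Stab2, Mrc1 and Dnase1l3) where 6.10% of the 10866 genes tested were called higher. edgeR called 3 higher, against 3.52% of the same genes. Since the genes were assembled on this comparison, nothing is read from these counts. In bulk RNA, fewer cells of a type and less RNA per cell cannot be told apart.

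Cxcr3-/- against WT compares libraries of these 2 genotypes and shares the WT libraries with the comparison above. The Cxcl10-/- libraries still enter through the spread, which the model estimates over all 9 libraries, and through the filter for Stab1, Stab2 and Dnase1l3. None of the 5 tested genes was called by limma or edgeR, and none had an unadjusted p under 0.05 in either. The differences on log2(FPKM + 1), Cxcr3-/- minus WT, were -0.46 ± 0.41 for Stab1, -0.06 ± 0.38 for Stab2 and -0.06 ± 0.44 for Mrc1 (SE). For Dnase1l3 and Fcgr2b they were 0.18 ± 0.51 and 0.52 ± 0.58. Adding 1 compresses levels near 0, and edgeR on counts gave -1.58 for Stab1, -0.78 for Stab2 and 1.16 for Dnase1l3. For Mrc1 and Fcgr2b edgeR gave -0.07 and 0.45. The limma adjusted p of the 5 genes ran from 0.855 to 0.993, and DESeq2 gave them no adjusted p. With only the 2 genotypes fitted, limma gave smaller SEs, 0.38 for Dnase1l3 and 0.41 for Fcgr2b, and adjusted p from 0.581 to 0.962. Over all genes, limma called 0 of 10866 (0%; 834 had an unadjusted p under 0.05), edgeR called 0 (0%; 681 unadjusted) and DESeq2 68, so the members' count is that of the background. The libraries overlapped for each of the 6 genes, where 12.1% of tested genes lay higher and 7.63% lower in Cxcr3-/- without overlap. A two-sided exact permutation test of 3 against 3 libraries gave p from 0.3 (Lyve1) to 1.0 (Mrc1 and Dnase1l3), where the smallest possible is 0.1. This does not show that the genotypes are alike: the SE of 0.51 for Dnase1l3 leaves room for differences of either sign.

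Cxcr3-/- against Cxcl10-/- repeats the first contrast from the other side and shares its Cxcl10-/- libraries. On log2(FPKM + 1), Cxcr3-/- minus Cxcl10-/- was -5.34 ± 0.41 for Stab1 and -2.58 ± 0.38 for Stab2 (SE). It was -2.02 ± 0.44 for Mrc1 and -1.90 ± 0.51 for Dnase1l3. Fcgr2b, at -0.96 ± 0.58, was not called. limma called 4 of 5 lower where 7.81% of all tested genes were, and edgeR 3 of 5 where 5.41% were. Dnase1l3 lost its call without WT replicate 1, 2 or 3 (-1.90 each), Cxcl10-/- replicate 2 (-1.48), or Cxcr3-/- replicate 1 (-1.72) or 2 (-1.71). It was also not called by edgeR or DESeq2 (-3.36 each) or at a pseudocount of 0.1 (-3.88). Without the low-value filter and with only these 2 genotypes fitted (-1.90 each) the call was lost as well, in all 11 of 18 alternatives.

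**Figure D2:**
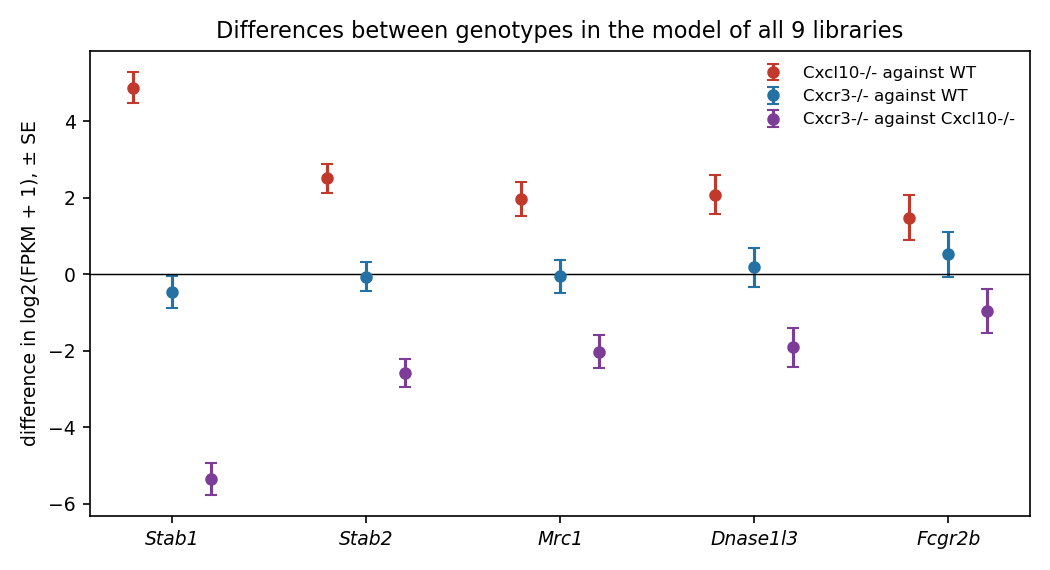
Differences in log2(FPKM + 1) between genotypes (y axis, first-named minus second) for the 5 genes that reached a mean of 1 FPKM, from the limma model of 9 libraries; points are estimates and bars their SE. Cxcr3-/- against WT runs from -0.46 to 0.52 on this scale, which compresses levels near 0. The contrasts with Cxcl10-/- run from 1.48 to 4.88 and from -0.96 to -5.34.

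The large FPKM of Stab1 rest on the length by which its counts were divided. Length was recovered, in libraries with at least 50 counts, as counts divided by FPKM and by the library's summed counts. For 443 genes with 1 annotated transcript and at least 100 counts in every library, the recovered length matched the GENCODE M21 length (median ratio 1.00, quartiles 1.00 and 1.00). Mrc1 came out at a median of 5375 bases, where its longest annotated transcript has 5374, Dnase1l3 at 4748 of 4747, and Stab2 at 7393 to 8228 bases of an annotated 8228. Stab1, whose longest transcript has 7999 bases, came out at 623, 660 and 692 bases in the Cxcl10-/- libraries, a median of 8.25% of the longest, among 13 annotated transcripts of 242 to 7999 bases. Of 10816 genes with a recovered length, 4, Stab1 among them, lay at or below that percentage.

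Counts, and FPKM at each gene's own longest transcript (7999 bases for Stab1, 8228 for Stab2), bring the stabilins together. Stab1 had 38.5, 35.5 and 27.8 CPM in the Cxcl10-/- libraries and Stab2 had 42.6, 52.9 and 34.1, so Stab1 had 0.904, 0.670 and 0.815 counts per Stab2 count. With FPKM recomputed at the longest transcript, Stab1 stood at 4.81, 4.43 and 3.47 and Stab2 at a mean of 5.25 ± 1.15 (SD, n = 3) where the deposited means were 51.9 and 5.53. On that scale the Cxcl10-/- to WT difference of Stab1 was 2.31 ± 0.32 (log2, SE), against 4.88 from the deposited FPKM, and that of Stab2 was 2.45 ± 0.32. edgeR, which uses counts and no length, gave 6.37 and 5.23. The ratio of mean CPM, Cxcl10-/- over WT, was 88.7 for Stab1 and 40.3 for Stab2, against 57.9 and 43.7 in deposited FPKM, so the smaller log2 difference of Stab1 at the longest transcript comes with a larger ratio: adding 1 compresses low levels more. With 1.11, 4.34 and 14.1 WT counts for Stab1, its ratios and the edgeR difference rest on few counts and mostly on WT replicate 3. Each stabilin kept its call.

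Fcgr2b had a recovered length that varied between libraries of 1 genotype, from 1569 to 3549 bases over the 9 libraries, with 7 annotated transcripts of 462 to 3544 bases. Cxcl10-/- replicate 1 was at 3549 bases and replicate 2 at 1569, so part of their 17.65 against 2.60 FPKM lies in the length. In CPM, Fcgr2b was at 6.81, 4.08 and 4.79 in WT, 9.23, 27.7 and 16.9 in Cxcl10-/- and 4.48, 10.7 and 7.23 in Cxcr3-/-. On this scale the Cxcl10-/- libraries no longer overlapped WT, though they overlapped Cxcr3-/-. No transcript-level values were used here, so which transcripts carried the counts is not known.

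At the longest transcript, the order of mean levels in Cxcl10-/- was Mrc1 (9.29 ± 3.82 FPKM, SD, n = 3), Stab2 (5.25 ± 1.15), Fcgr2b (5.07 ± 2.62), Dnase1l3 (4.48 ± 3.08) and Stab1 (4.24 ± 0.690), with Lyve1 at 0. Mrc1 exceeded Stab2 by slightly more than its own SD, and Stab2, Fcgr2b, Dnase1l3 and Stab1 each differed from the next by less than the larger of both SDs. In WT the order was Mrc1 (1.51 ± 0.394 FPKM), Fcgr2b (1.47 ± 0.400), Dnase1l3 (0.183 ± 0.260), Stab2 (0.130 ± 0.0408), Stab1 (0.0478 ± 0.0455) and Lyve1 (0.0145 ± 0.0127). Mrc1 and Fcgr2b were the highest members in WT stem cell sorts, and they did not differ from each other beyond their spread. Among the lower neighbours in WT, Stab2 and Stab1 differed by more than their SDs, while Dnase1l3 and Stab2, and Stab1 and Lyve1, did not. In Cxcr3-/- the order was Fcgr2b (2.10 ± 0.872 FPKM), Mrc1 (1.53 ± 1.05), Dnase1l3 (0.422 ± 0.690), Lyve1 (0.101 ± 0.111), Stab2 (0.0811 ± 0.0711) and Stab1 (0.0181 ± 0.0216). There Mrc1 and Dnase1l3 differed by slightly more than the larger of their SDs, and the other neighbours by less.

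**Figure D3:**
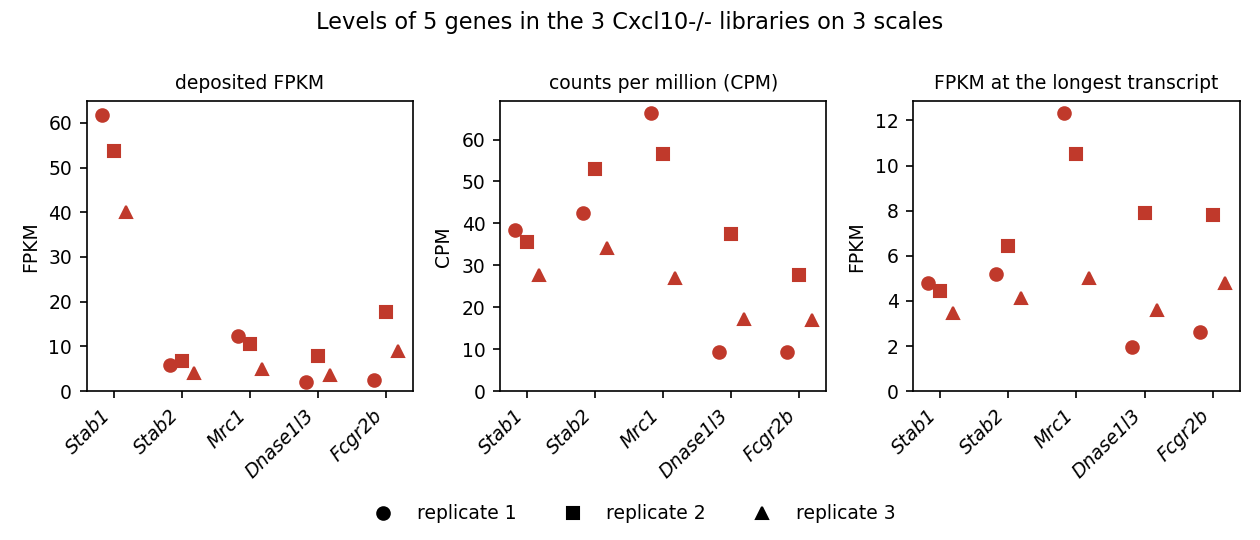
Levels of 5 genes in the 3 Cxcl10-/- libraries on 3 scales with linear axes: deposited FPKM, CPM, and FPKM recomputed at the longest GENCODE M21 transcript; each point is 1 mouse. Stab1 lies at 40.1 to 61.8 in deposited FPKM, and at 3.47 to 4.81 beside Stab2 once the longest transcript is used.

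The 3 Cxcl10-/- mice did not rank the genes alike. Stab1 and Mrc1 were highest in replicate 1 and lowest in replicate 3, and Mrc1 spread more (66.3, 56.6 and 26.9 CPM) than Stab1. Stab2, Dnase1l3 and Fcgr2b were highest in replicate 2. Dnase1l3 (9.22, 37.5 and 17.1 CPM) and Fcgr2b followed the same order, highest in replicate 2 and lowest in replicate 1. The stromal and bone genes described below were also highest in replicate 2, but their sum was lowest in replicate 3. Summed over the 6 genes, the level was 166, 210 and 123 CPM in Cxcl10-/-, 13.7 to 17.8 in WT and 14.6 to 20.96 in Cxcr3-/-. The stabilins made up 42.1 to 50.4% of the summed counts in Cxcl10-/- and 0 to 13.6% in the other 6 libraries.

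Other genes of sinusoidal endothelium were looked at from a list of 17 chosen with earlier results of these data known. Of the 13 that reached 1 FPKM, 6 of them only through the Cxcl10-/- libraries, 6 were called higher in Cxcl10-/- against WT and 1 lower. The median difference was 1.49 against 0.08 for all tested genes. Beside the counts of this and each later list, limma called 6.10% of all tested genes higher and 3.18% lower, and edgeR called 3.52% higher. Vcam1, the adhesion molecule of sinusoids and of marrow macrophages, rose from 0.69, 1.63 and 3.77 to 19.8, 35.9 and 23.2 FPKM. Tspan7, a tetraspanin gene, rose from 2.31, 1.52 and 0.13 to 8.61, 15.8 and 15.0 FPKM, and Gpr182, an endothelial receptor that scavenges chemokines, from 0.23, 0.00 and 0.16 to 2.17, 6.26 and 4.83. Clec4g, a lectin gene of hepatic and lymph node sinusoids, went the other way, from 3.77, 3.42 and 7.66 FPKM in WT to 0 counts in all Cxcl10-/- libraries. edgeR called 4 higher, Tspan7 not among them. The number limma called higher was 4, 3 and 5 without WT replicates 1, 2 and 3, Gpr182 losing its call without WT replicate 2 (2.10) and Clec4g without any one WT library (-2.63, -2.68 and -2.20).

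Of 20 general endothelial genes, some of which stem cells also express, 16 were tested, 2 of them (Cdh5 and Mmrn2) only through the Cxcl10-/- libraries. limma called 7 higher, where 6.10% of all tested genes were called higher, and 0 lower. The median difference was 0.85 against 0.08 for all tested genes. Called higher were, among others, Cldn5, a tight junction gene (0.34, 0.42 and 0.63 FPKM in WT, 13.8, 16.8 and 13.45 in Cxcl10-/-), and Mmrn2, a matrix gene of vessels (0.19, 0.63 and 0.63 against 4.79, 7.28 and 5.35). Cdh5, which encodes VE-cadherin, was called at 12.45, 4.73 and 3.38 FPKM against 0.00, 0.61 and 1.15, and Egfl7, a vessel-secreted factor gene, at 74.6, 124 and 115 against 37.5, 43.9 and 61.1. edgeR called 4, without Cdh5 and Egfl7. The number limma called was 2, 2 and 4 without WT replicates 1, 2 and 3 and 4 without Cxcl10-/- replicate 2. Cdh5 lost its call without WT replicates 1 (1.90) or 2 (2.25), and Egfl7 without these (0.96 and 1.07) or Cxcl10-/- replicate 2 (0.98).

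Genes of other vessel types were not all low. Of 13 arterial and capillary genes 2 of 6 tested were called higher, the fatty acid carrier gene Fabp4 (5.67, 18.2 and 5.92 FPKM in WT, 287, 455 and 341 in Cxcl10-/-) and Gpihbp1, which holds lipoprotein lipase on capillaries (0.17, 0.00 and 2.88 against 35.2, 71.2 and 16.4), which edgeR did not call. Bmx, Gja4 and Hey1, which mark arteries, were named because they had 0 counts in all Cxcl10-/- libraries. Other arterial genes of the list, such as Gja5, Efnb2 and Dll4, are not shown, so these 3 do not stand for arterial genes as a group. The median difference of the tested arterial and capillary genes was 1.53, against 0.08 for all tested genes. Of 6 venous genes 2 of 4 tested were called higher, the chemokine-binding receptor gene Ackr1 (0.12, 3.13 and 1.16 against 72.9, 42.9 and 41.6) and Lrg1 (0.30, 0.42 and 0.91 against 29.9, 29.2 and 13.4). Lrg1 entered the test only through the Cxcl10-/- libraries, as did 2 of the 6 tested arterial and capillary genes, neither of them Fabp4 or Gpihbp1. Of 6 lymphatic genes, Pdpn, Ccl21a, Reln and Flrt2 had 0 counts in Cxcl10-/- and Prox1 was at 0.44, 0.00 and 0.01 FPKM. Of the 4 lymphatic genes at 0, 1 had 0 counts in all 9 libraries. The sixth, Mmrn1, which platelets and stem cells also express, fell from 70.5, 75.8 and 75.7 to 39.5, 38.5 and 21.45 FPKM, a call lost without WT replicates 2 or 3 (-1.17 each).

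Because macrophages, dendritic cells and B cells share Mrc1, Stab1, Dnase1l3 or Fcgr2b with sinusoids, their markers were set beside the members. Of 20 macrophage genes, 9 were tested and none was called in Cxcl10-/- against WT by limma or edgeR, with 4 and 2 at an unadjusted p under 0.05. Without Cxcl10-/- replicate 1 limma called 1 lower, and without Cxcr3-/- replicate 1 it called 1 higher and 1 lower. Adgre1, which encodes F4/80, Vsig4 and Timd4 had 0 counts in each Cxcl10-/- library, and the list summed to 588 to 660 CPM there, 768 to 938 in WT and 331 to 583 in Cxcr3-/-. Lyz2 took most of that sum, at 370, 373 and 441 FPKM in Cxcl10-/- against 543 to 661 in WT. C1qb, a complement gene of macrophages, was at 16.55, 7.35 and 5.68 FPKM against 1.86, 0.60 and 4.16 without being called; Lyz2 and C1qb were picked after their values were seen. The B cell list summed to 47.2 to 178 CPM in Cxcl10-/- and 61.0 to 86.8 in WT with 0 of 2 tested genes called by limma or edgeR (0 and 1 at an unadjusted p under 0.05), and Vpreb1 at 0 counts. The dendritic list summed to 52.7 to 121 CPM and 47.3 to 67.6, with 0 of 3 called by limma or edgeR (1 each at an unadjusted p under 0.05) and Itgax and Cd209a at 0 counts.

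Of 12 stromal and bone genes, 5 were tested, 4 of these only through the Cxcl10-/- libraries, and 3 were called higher. Sparc, a matrix glycoprotein that stabilin-1 can bind, rose from 0.36, 1.36 and 2.96 to 57.0, 103 and 54.9 FPKM. Ibsp, which encodes bone sialoprotein, rose from 0.00, 0.00 and 0.62 to 22.9, 81.45 and 16.2 FPKM, and the niche chemokine gene Cxcl12 from 0.11, 0.01 and 1.24 to 14.1, 119 and 10.8. The list summed to 188 to 759 CPM in Cxcl10-/-, highest in replicate 2, against 6.69 to 21.4 in WT and 6.95 to 11.9 in Cxcr3-/-. The osteocalcin gene Bglap and the smooth muscle gene Acta2 had 0 counts in Cxcl10-/-, and 1 of these 2 genes had 0 counts in all 9 libraries. The part of stromal RNA in the members' levels was not tested.

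**Figure D4:**
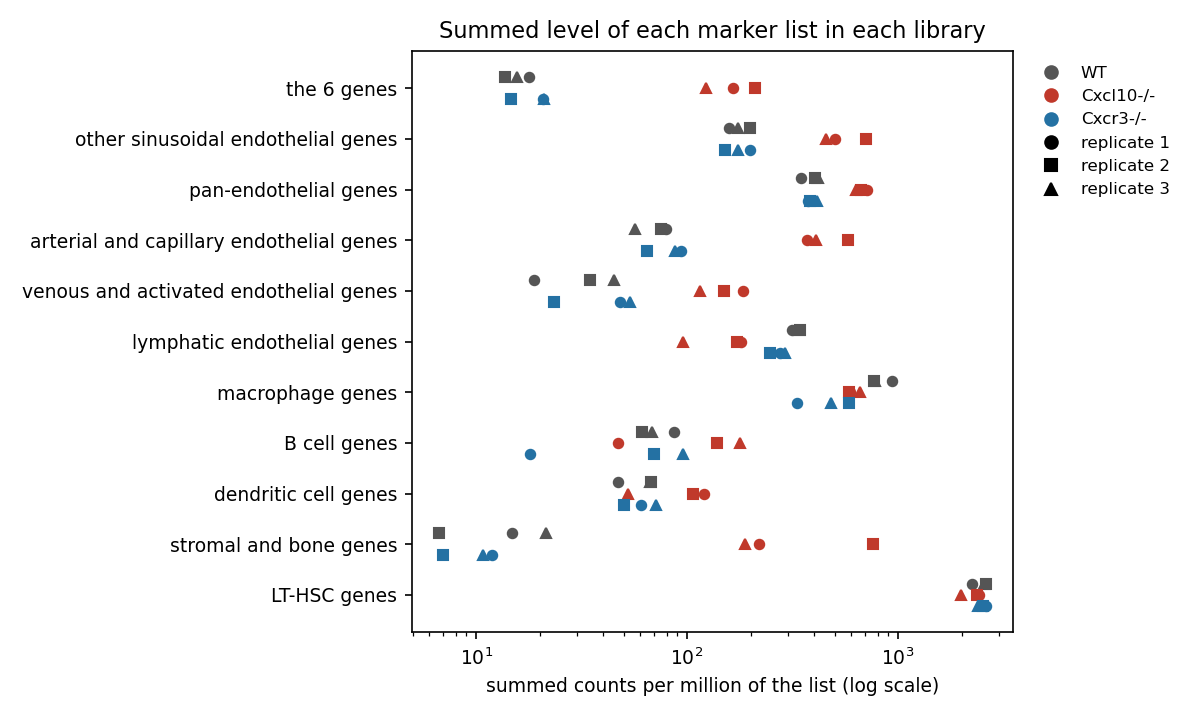
Summed CPM (x axis, log scale) of the 6 genes and of 10 marker lists in each of the 9 libraries; colour is the genotype and shape the replicate number. The 6 genes lie at 123 to 210 CPM in Cxcl10-/- and at 13.7 to 20.96 in the other libraries, the macrophage list is highest in WT, and the stromal list is highest in Cxcl10-/- replicate 2.

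The rest of the scavenging apparatus was followed through the route of a ligand. Of 21 other scavenger and endocytic receptor genes, 10 were tested and 1 was called higher in Cxcl10-/- against WT: Cd36, the receptor for fatty acids and oxidised lipoproteins, at 0.86, 1.48 and 0.29 FPKM in WT and 6.30, 21 and 8.39 in Cxcl10-/-. Msr1, the macrophage scavenger receptor gene, and the hepatocyte genes Asgr1 and Asgr2 had 0 counts in Cxcl10-/-. Of these 3 genes, 2 had 0 counts in all 9 libraries, so their 0 is not particular to Cxcl10-/-. The median of the 10 was 0.01, against 0.08 for all tested genes.

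Of 25 genes for coated pits, sorting and lysosomal digestion, 24 were tested, 2 of them (Lgmn and Dab2) only through the Cxcl10-/- libraries. In Cxcl10-/- against WT, 4 were called higher and 1 lower, where 6.10% of all tested genes were called higher and 3.18% lower. The lysosomal protease gene Ctsl rose from 40.2, 40.3 and 35.1 to 87.1, 106 and 83.7 FPKM. Lgmn, the legumain protease gene, went from 0.64, 0.64 and 0.27 to 22.7, 5.92 and 2.51 FPKM, and Dab2, a clathrin adaptor gene of sinusoids and macrophages, from 0.10, 0.80 and 0.17 to 3.86, 9.24 and 2.51. Lamp2, which encodes a lysosomal membrane protein, fell from 81.7, 77.0 and 73.6 to 39.1, 45.2 and 50.2 FPKM. Leaving out any one WT library ended the calls of Lgmn (2.53, 2.53 and 2.34), Dab2 (1.95, 2.30 and 1.99) and Lamp2 (-0.74, -0.78 and -0.82), and edgeR called 1 higher and 1 lower. The list's median was 0.07.

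Among the families of single members, Fcgrt, which encodes the neonatal Fc receptor that recycles IgG and albumin, rose from 4.49, 6.50 and 7.95 to 25.5, 25.3 and 43.0 FPKM, the only gene of 5 tested Fc receptor and partner genes to be called. Of 12 genes for hyaluronan receptors, synthases and hydrolases, 6 were tested and 1 was called: Hmmr, a hyaluronan-binding spindle protein gene of dividing cells, fell from 10.9, 16.5 and 14.5 to 0.89, 4.51 and 2.43 FPKM. Has1 and Has2, which encode hyaluronan synthases, had 0 counts in Cxcl10-/-. Of the 6 other DNase genes 4 were tested and none was called by limma or edgeR (2 and 1 at an unadjusted p under 0.05), and Dnase2b had 0 counts in Cxcl10-/-. In Cxcr3-/- against WT limma and edgeR called 0 of the 122 tested genes of all 15 lists, with 6 and 7 at an unadjusted p under 0.05.

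The genes with the most similar profile were found by Pearson r of log2(FPKM + 1) over the 9 libraries among 10547 named genes; the libraries share their genotype, so r is a description. Among the nearest to Stab1 were Sparc (r = 0.994) and Jund (0.983). Stab2 was nearest to Serping1, which encodes the C1 inhibitor (0.995), Dapk2 (0.991) and Fos (0.989). Mrc1 was nearest to Dph7 (0.978), Fam167b (0.978) and Haus7 (0.972), and Dnase1l3 to the cytokine receptor gene Il6st (0.973), Ppp1r15a (0.969) and Myo7a (0.962). Fcgr2b was nearest to Tspan4 (0.989), Mmp23 (0.967) and Timm10 (0.960). The mean of the 5 standardised profiles was nearest to Wfdc17 (0.995), Serping1, Dapk2 (0.991 each), Ibsp (0.989), Ctsl (0.983), Gpr182 (0.982), Rabepk (0.977), Polr2f (0.976), Ndufb6 (0.972) and Rab14 (0.971).

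Among the members themselves, Stab1 and Stab2 had r = 0.989 over the 9 libraries, Stab1 and Mrc1 0.938, Stab2 and Dnase1l3 0.892, and Mrc1 and Fcgr2b 0.449. Over the 6 libraries without Cxcl10-/- the same pairs had r = 0.813, 0.411, 0.236 and -0.455, and Stab2 and Fcgr2b -0.988 against 0.604 over 9. The high values over 9 libraries thus rest largely on the genotype with which the genes were chosen, and r over 6 libraries rests on few counts for Stab1 and Stab2. Serping1 stood at 0 in all WT libraries and at 9.68, 17.05 and 6.28 FPKM in Cxcl10-/-, whereas Ndufb6, a respiratory chain gene, went only from 466 to 536 up to 662 to 768 FPKM. Genes with high r therefore differ in how far they moved.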

How the data were processed

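The authors deposited 1 table with FPKM and expected counts per gene and library, per the file headers. Tools listed in the submitters' processing notes are RSEM, HISAT2, StringTie and fastp, without version, and neither build nor annotation is given in the sources used here. GENCODE M21 holds 22267 of the 22322 identifiers. FPKM were analysed as log2(FPKM + 1) for the 10866 genes with a mean of at least 1, in limma 3.58.1 (R 4.3.3) with an intensity trend, 1 mean per genotype and Benjamini-Hochberg adjustment. The deposited expected counts were rounded for edgeR 4.0.16 (quasi-likelihood, TMM) and DESeq2 1.42.0, and CPM are the unrounded counts scaled to a library sum of 1000000. The models were tested on simulated data in which changes were planted only in genes with higher mean WT counts than any member. This test therefore does not cover genes at the members' levels. Members, lists and tests were chosen with earlier results of these data known. From each list up to 4 called genes with the smallest p in Cxcl10-/- against WT were named, and markers at 0 counts in Cxcl10-/-. The genes most alike were those with the highest Pearson r, of which 1 is not reported here. Replicates are separate mice. Alternatives were another pseudocount, no filter, other normalizations and tools, a replicate block, only 2 genotypes fitted, mitochondrial transcripts left out, FPKM at the longest transcript, and each library left out.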

Additional observations from a re-analysis of the deposited data

How the results depend on the processing

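Of 18 alternatives, Stab1 and Stab2 kept direction and call in all for both contrasts with Cxcl10-/- (Stab1 against WT 2.31 to 6.40, Stab2 2.39 to 5.23, log2). Without the low-value filter, 2 members rather than 4 were called in each, and 588 and 819 genes over the whole table rather than 1008 and 1359; here 20523 genes were tested. At a pseudocount of 0.1 the difference of Dnase1l3 from WT, 4.16, was not called. In Cxcr3-/- against Cxcl10-/-, 618 genes were called with only these 2 genotypes fitted. DESeq2 called 68 genes in Cxcr3-/- against WT. Leaving out 1 library gave 2 to 5 members and 282 to 1192 genes in Cxcl10-/- against WT, 0 to 1 gene in Cxcr3-/- against WT, and 3 to 4 members and 596 to 1532 genes in Cxcr3-/- against Cxcl10-/-. The share of higher calls in Cxcl10-/- against WT was 65.8%, but 48.8% in edgeR, 47.9% in DESeq2, 46.9% after quantile normalization and 36.8% with mitochondrial transcripts left out, which moved the median difference of all genes from 0.08 to -0.11. In Cxcr3-/- against Cxcl10-/- it was 37.5%, and 48.5%, 47.4%, 53.9% and 57.9% in the same order. With the replicate block, 4 members and 810 genes were called in Cxcl10-/- against WT. Same-numbered libraries had deviations correlated at -0.0857 to 0.0309, under 0.1 in all 9 pairs, so no pairing by number was seen over all genes. Whether same-numbered libraries shared a batch was not tested. The FPKM at the longest transcript were chosen after seeing the data. Other causes were not tested.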
